A study of Mus musculus with 10 samples.

Results

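The 36 genes described here encode the route of glucose through the cell, from its uptake at the plasma membrane to lactate or to the gate of the mitochondrion. They were chosen by name for that route, with earlier results of these data known. All 36 were found among the 40620 genes of the tables. Of these, 3 carry glucose, 4 are hexokinases or the glucose phosphate isomerase, and 8 act at the phosphofructokinase step. The lower reactions of glycolysis are carried out by 11, while 4 make or export lactate and 6 form the pyruvate gate.

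Glycolysis splits glucose into pyruvate and yields a little ATP without oxygen. Pyruvate is then either reduced to lactate by lactate dehydrogenase or oxidised in mitochondria by the pyruvate dehydrogenase complex, which the pyruvate dehydrogenase kinases switch off. Osteoblasts are known for making much lactate even in the presence of oxygen, and several glycolytic genes are textbook targets of the hypoxia-inducible factors.

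RNA was sequenced from MC3T3-E1 subclone 4 cells, a mouse pre-osteoblast line, at 5 stages with 2 replicates each, named A and B, 10 samples in all. Subconfluent and confluent cells stood in growth medium, αMEM with serum. The 24 h, 14 d and 21 d cells had been switched to the same medium plus β-glycerophosphate at 10 mM and ascorbic acid at 50 µg/ml for that time. The study followed how gene expression changes from proliferating cells to mature osteoblasts. No culture was held for 14 d or 21 d without the 2 additives, so time, density and medium cannot be told apart. The subconfluent, confluent and 24 h libraries carry 2 index sequences and the 14 d and 21 d libraries 2 other ones. Late stage and index pair therefore cannot be told apart either. The headers name no batch. Some lane numbers are shared by early and late libraries, but an equal number does not show a shared lane. Confluent replicate A and 24 h replicate A, for example, carry the same index and the same lane number. How the libraries were spread over sequencing runs is therefore not known. Within an index pair fall the comparisons of confluent with subconfluent, 24 h with confluent, and 21 d with 14 d cells. Nothing in the labels says whether the replicates were separate cultures, and the p-values measure the spread between these samples, which may be technical. In bulk RNA, fewer cells of a type and less RNA per cell cannot be told apart.

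Counts on genes summed to between 44736156 and 162939333 per sample. These sums were 1.443 to 1.601 times the number of reads implied by the RPKM, with the highest ratio in 24 h replicate A. Levels below are RPKM, the authors' reads scaled to gene length and to the size of the library, which allow genes to be compared with each other. Changes are log2 fold changes ± SE fitted to the counts of all 10 samples by edgeR's quasi-likelihood test, and a call means an adjusted p-value below 0.05. The log2 ratio of replicate A to B had an SD of 1.02 across genes at 24 h, against 0.835 to 0.853 at the other stages, and the 24 h replicate A library stands apart. Of 8 osteoblast markers, 7 rose at 14 d against confluent and 7 at 21 d against subconfluent cells (87.5% in each, against 32.1% and 50.7% of all genes called). The list summed to between 5100 and 7880 RPKM in the first 3 stages and between 9480 and 16100 in the last 2. A list of 12 cell cycle genes summed to 946 and 940 RPKM in subconfluent cells and to 97.7 and 118 at 21 d, and all 12 fell in that comparison. Among 4 chondrocyte markers the 3 tested rose at 14 d against confluent cells (summed level 47.4 to 244 RPKM), while Acan had at most 10 counts in a sample. At 21 d against subconfluent cells 2 of them were higher, but Col2a1 was lower (-0.93 ± 0.13, adjusted p = 0.00077). The list summed to 176 and 174 RPKM in subconfluent and to 112 and 117 in 21 d cells. Skeletal muscle markers summed to 15.0 to 44.2 RPKM, with 4 of 7 tested and 1 of them lower in both comparisons. Blood markers summed to 2.42 to 3.98 RPKM, adipocyte markers to 0.119 to 1.13 and endothelial markers to at most 0.0558. The part of these changes in the values below was not tested.

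Over the 5 stages, 26 of the 35 members tested differed (74.3%, against 48.9% of 20808 genes tested). The 36th member, Slc2a4, the insulin-regulated glucose transporter, was at or below 0.0431 RPKM in every sample and was not tested. At 14 d against confluent cells 19 of the 35 were called (54.3%), 15 higher and 4 lower, against 32.1% of all genes, 16.9% higher and 15.3% lower. Of the 11 lower glycolysis genes 8 were called, each of them higher. At 21 d against subconfluent cells 19 were called again, 11 higher and 8 lower, but here 50.7% of all genes were called, 27.3% higher and 23.5% lower, so the members' share lies near that of all genes. The median log2 fold change of the members tested was 0.32 at 14 d against confluent cells and 0.02 at 21 d against subconfluent cells, beside 0.03 and 0.04 for all genes. Neither here nor below were the genes behind the shares of all genes matched for level, and 7 members averaged at least 100 RPKM.

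The calls between neighbouring stages were unevenly spread. Confluent against subconfluent cells gave 2 calls, both higher, where 3.28% of all genes were called, 1.95% higher and 1.34% lower. The first 24 h of osteogenic medium gave 3 calls, 2 higher and 1 lower, where the shares of all genes were 5.15%, 3.59% and 1.57%. Between 24 h and 14 d 16 members were called, 13 higher and 3 lower (45.7%, against 17.3% of all genes, 9.08% higher and 8.21% lower). Between 14 d and 21 d 4 were called, 1 higher and 3 lower, where 9.72% of all genes were called, 3.77% higher and 5.95% lower. Calls of more than 2-fold numbered 1, 1, 4 and 0 in these 4 comparisons, 11 at 14 d against confluent and 16 at 21 d against subconfluent cells. The shares of all genes past that bar were 1.43%, 2.13%, 5.98%, 3.97%, 13% and 27.6%. The comparisons share samples with each other and are not independent.

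The count between 24 h and 14 d rested on few libraries. It was 6 without 14 d replicate A, 4 without 14 d replicate B, 10 without either subconfluent replicate and 1 when those 2 stages alone were fitted, so members are described below mainly by the 2 longer comparisons. Without confluent replicate B or without 14 d replicate B, the count at 14 d against confluent cells was 12, and without both 24 h libraries, an alternative chosen after seeing the data, it was 23. The 21 d against subconfluent count was then 25. All genes called in these 2 comparisons then numbered 10539 and 13216, against 6688 and 10553 in the main fit. In the same fit without 24 h libraries, the counts were 9 for confluent against subconfluent and 18 for 21 d against 14 d cells. All genes called there numbered 3299 and 5315, against 683 and 2023 in the main fit. With the 24 h and 14 d stages alone, 319 of all genes were called between them, against 3597 in the main fit. These shifts were therefore not particular to the members. With library sizes alone in place of TMM scaling, the median log2 fold change at 14 d against confluent cells shifts by -0.23 and the calls there become 12 higher and 8 lower. The same change of scale gave 2 higher and 4 lower at 24 h against confluent and 3 higher and 4 lower at 21 d against 14 d cells, and no called member changed direction. RPKM is scaled to a library size as well, though not to the summed counts, so RPKM ratios between stages differ from the fitted changes by about this shift.

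**Figure D1:**
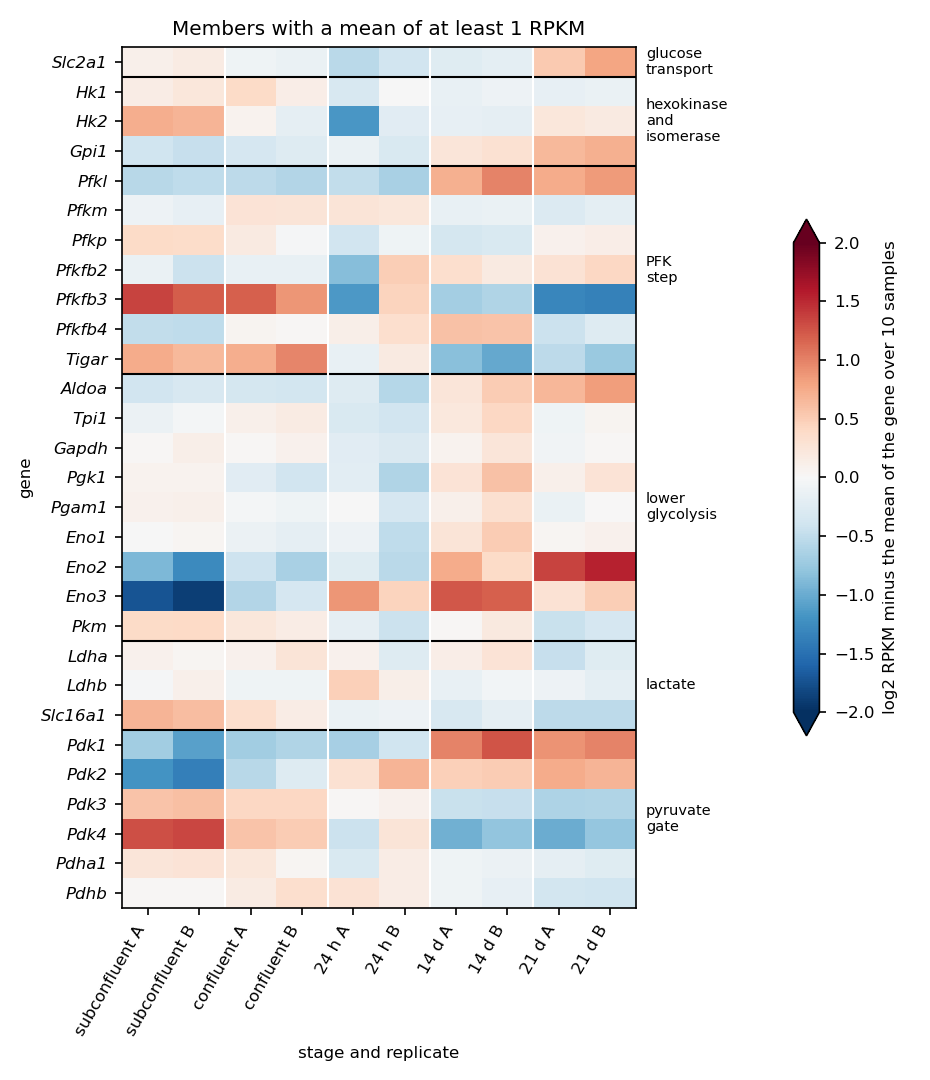
Log2 RPKM of the 29 members with a mean of at least 1 RPKM in each of the 10 samples, minus the gene's own mean over the samples. Rows are genes grouped by step and columns are the replicates of each stage, with red above and blue below the gene's mean. Pfkl, Pdk1 and Eno2 are red at 14 d and 21 d, whereas Pdk3, Pdk4, Tigar and Pfkfb3 are blue there.

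The promoters of the members that moved most at 14 d against confluent cells are shown here, because glycolytic promoters are where hypoxia-inducible factors are known to act, together with that of Ldha, which was not called. Each is the 250 bases before the most upstream start in RefSeq on GRCm38.p6, read 5′ to 3′ on the gene's strand. Capitals mark ACGTG or GCGTG on either strand, the core that hypoxia-inducible factors bind. Pdk1, Eno3 and Pfkl had the largest rises and Tigar, Pfkfb3 and Pdk4 the largest falls among called members with a mean of at least 1 RPKM. The windows are chr2:71872974-71873223 on the plus strand for Pdk1, chr11:70656926-70657175 on the plus strand for Eno3, chr10:78009808-78010057 on the minus strand for Pfkl, chr6:127109553-127109802 on the minus strand for Tigar, chr2:11553930-11554179 on the minus strand for Pfkfb3, chr6:5496279-5496528 on the minus strand for Pdk4, and chr7:46845554-46845803 on the plus strand for Ldha.
Pdk1: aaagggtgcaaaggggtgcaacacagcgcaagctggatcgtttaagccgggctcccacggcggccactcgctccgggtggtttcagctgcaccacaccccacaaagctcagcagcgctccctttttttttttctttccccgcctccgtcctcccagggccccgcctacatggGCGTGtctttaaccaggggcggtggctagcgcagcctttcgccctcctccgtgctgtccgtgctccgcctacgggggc
Eno3: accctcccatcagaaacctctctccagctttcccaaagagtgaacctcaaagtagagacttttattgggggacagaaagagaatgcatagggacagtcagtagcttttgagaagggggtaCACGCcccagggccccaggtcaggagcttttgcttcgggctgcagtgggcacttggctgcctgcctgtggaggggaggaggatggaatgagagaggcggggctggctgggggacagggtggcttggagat
Pfkl: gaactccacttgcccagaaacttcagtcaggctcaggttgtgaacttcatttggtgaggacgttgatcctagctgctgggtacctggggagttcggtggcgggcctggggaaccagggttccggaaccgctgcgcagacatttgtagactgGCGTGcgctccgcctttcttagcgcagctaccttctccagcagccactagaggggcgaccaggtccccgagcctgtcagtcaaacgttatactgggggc
Tigar: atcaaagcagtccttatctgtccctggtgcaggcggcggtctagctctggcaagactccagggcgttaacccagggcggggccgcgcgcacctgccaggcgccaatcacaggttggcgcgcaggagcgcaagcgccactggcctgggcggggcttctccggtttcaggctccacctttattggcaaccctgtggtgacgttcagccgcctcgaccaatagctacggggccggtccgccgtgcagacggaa
Pfkfb3: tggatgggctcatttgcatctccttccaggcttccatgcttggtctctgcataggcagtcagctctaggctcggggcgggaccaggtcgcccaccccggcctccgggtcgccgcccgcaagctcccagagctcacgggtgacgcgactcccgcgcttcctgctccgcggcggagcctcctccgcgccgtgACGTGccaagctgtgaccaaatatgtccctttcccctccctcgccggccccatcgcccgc
Pdk4: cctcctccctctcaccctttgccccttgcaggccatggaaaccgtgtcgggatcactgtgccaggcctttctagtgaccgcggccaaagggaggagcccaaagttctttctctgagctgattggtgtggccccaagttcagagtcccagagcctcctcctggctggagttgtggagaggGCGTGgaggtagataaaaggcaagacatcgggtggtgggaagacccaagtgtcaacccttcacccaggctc
Ldha: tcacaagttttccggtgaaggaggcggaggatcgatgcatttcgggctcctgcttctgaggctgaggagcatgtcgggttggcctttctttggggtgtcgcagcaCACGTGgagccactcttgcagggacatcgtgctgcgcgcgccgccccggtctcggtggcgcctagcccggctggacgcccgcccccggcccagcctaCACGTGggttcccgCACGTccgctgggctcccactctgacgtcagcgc

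One match lies in each of the Pdk1, Eno3, Pfkl, Pfkfb3 and Pdk4 windows and 0 in that of Tigar. The Ldha window holds 5 matches, 4 of which come from 2 copies of CACGTG, whose letters hold the core on both strands. A window was found for 34 members and for 27025 genes in all. The core was present in 25 of the 34 members (73.5%) and in 38.6% of all genes. It was present in 9 of the 14 members with a window that rose at 14 d against confluent cells, in 3 of the 4 that fell and in 13 of the 16 not called. CACGTG was found in 4 members (11.8%, against 6.04% of all genes), TGTGGT, the core that Runx factors bind, in 7 (20.6%, against 14.2%), and TATAAA in 1, Eno2 (2.94%, against 13.0%). The windows of members and of all genes were not matched for base composition, and a match is a description of the letters only.

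Glucose entry changed late. Slc2a1, the widespread basal glucose transporter, stood at 21.7 and 22.5 RPKM in subconfluent, 19.0 and 18.4 in confluent, 13.8 and 15.5 in 24 h, 17.0 and 17.6 in 14 d and 29.0 and 35 in 21 d cells. Both 21 d samples lay above all the others, and both 24 h samples below. The gene rose by 0.82 ± 0.10 between 14 d and 21 d (adjusted p = 0.0032), 1.76-fold, and by 0.65 ± 0.10 at 21 d against subconfluent cells (adjusted p = 0.0015). Slc2a3, a high-affinity transporter, was a minor form with 0.0315 to 0.0576 RPKM in the 6 samples of the first 3 stages, 0.282 and 0.348 at 14 d and 0.493 and 0.580 at 21 d. It rose by 3.65 ± 0.41 at 21 d against subconfluent cells (adjusted p = 0.00028), yet it made up only 1.65% ± 0.0283 (SD, n = 2) of the RPKM of the 3 transporters at 21 d.

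Hexokinases trap glucose as glucose 6-phosphate, and here the 2 abundant forms were called in none of the 6 comparisons. Hk1, the general form, ran from 13.9 to 22.6 RPKM over all samples. Hk2, the inducible form, had 12 and 11.6 RPKM in subconfluent, 7.58 and 6.39 in confluent, 3.21 and 6.2 in 24 h, 6.47 and 6.40 in 14 d and 8.50 and 8.23 in 21 d cells. It differed over the 5 stages (adjusted p = 0.022 by the F test) with its highest values in subconfluent cells. The 24 h replicates stood farther apart than those of any other stage.

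Gpi1, which turns glucose 6-phosphate into fructose 6-phosphate, climbed in the late stages. Its levels were 27.5 and 26.3 RPKM in subconfluent, 28.5 and 30.1 in confluent, 32.8 and 29.2 in 24 h, 42.9 and 44.6 in 14 d and 56.4 and 59.3 in 21 d cells. The 4 late samples did not overlap the 6 early ones. The rise was 0.79 ± 0.11 at 14 d against confluent (adjusted p = 0.0018) and 1.22 ± 0.11 at 21 d against subconfluent cells (adjusted p = 9.7e-05), 2.33-fold. Hk3, a form of blood cells, stayed at or below 0.290 RPKM, with 0 to 70 counts a sample. It was called at 14 d against confluent (2.40 ± 0.66, adjusted p = 0.029) and at 21 d against subconfluent cells (3.17 ± 0.74, adjusted p = 0.0096). Leaving out any of 6 libraries, both replicates of confluent, 14 d and 21 d cells, ended the first call (adjusted p = 0.056 to 0.15), and leaving out 21 d replicate B the second (adjusted p = 0.051). Of the 6 blood markers, Ptprc and Hbb-bs had 0 counts in every sample, and Adgre1 and Hba-a1 reached at most 0.00942 and 0.182 RPKM. The macrophage genes Cd68 and Csf1r ran from 0.464 to 0.936 and from 1.83 to 3.19 RPKM and were called in neither comparison. Gpi1 shares 741 of its 6452 exon bases with an antisense gene, and whether the counting used strand is not given in the sources used here.

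At the phosphofructokinase step, the committed step of glycolysis, the liver-type subunit gene Pfkl rose, while its paralogs were not called in any pairwise comparison. Pfkl lay at 16.7 and 17.2 RPKM in subconfluent, 16.9 and 16.3 in confluent and 17.4 and 15.6 in 24 h cells. It then lay at 39.8 and 48.7 at 14 d and 40.9 and 44.2 at 21 d. Every late sample was more than 2-fold above every early one, and the fitted rise was 1.63 ± 0.14 at 14 d against confluent (adjusted p = 0.00023), 3.10-fold, and 1.45 ± 0.14 at 21 d against subconfluent cells (adjusted p = 0.00012). Between 14 d and 21 d the difference was -0.13 ± 0.13 and was not called.

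Pfkm, the muscle-type subunit, stood at 15.9 and 15.1 RPKM in subconfluent, 20.6 and 20.2 in confluent, 20.2 and 19.8 in 24 h, 15.3 and 15.5 in 14 d and 14.1 and 14.9 in 21 d cells. Pfkp, the platelet-type subunit, stood at 19.2 and 19.1, 16.7 and 14.5, 11.4 and 14.0, 11.6 and 12, and 15.7 and 16.2 RPKM in the same order. Both differed over the 5 stages (adjusted p = 0.0075 for Pfkm and 0.012 for Pfkp) with highest levels in confluent and 24 h cells for Pfkm and in subconfluent cells for Pfkp. Pfkp shares 748 of its 13401 exon bases with Pitrm1 on the opposite strand.

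The make-up of the enzyme's messenger RNA shifted accordingly. Pfkl made up 32.8% ± 0.794 of the summed RPKM of the 3 subunits in subconfluent, 31.6% ± 0.444 in confluent and 33.5% ± 2.76 in 24 h cells, and 61.7% ± 2.98 at 14 d and 58.3% ± 0.705 at 21 d (SD, n = 2 each). The Pfkp/Pfkl ratio was 1.13 ± 0.0245 in subconfluent and 0.269 ± 0.0311 in 14 d cells, and the Pfkm/Pfkl ratio 1.23 ± 0.0197 in confluent and 0.352 ± 0.0472 in 14 d cells (SD, n = 2). Both ratios differed over the 5 stages (p = 0.0021 and 0.0095, adjusted p = 0.0063 and 0.013, exact permutation test over all 945 ways to split the 10 samples into 5 pairs, 8 ratios tested, smallest possible p = 0.0011).

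**Figure D2:**
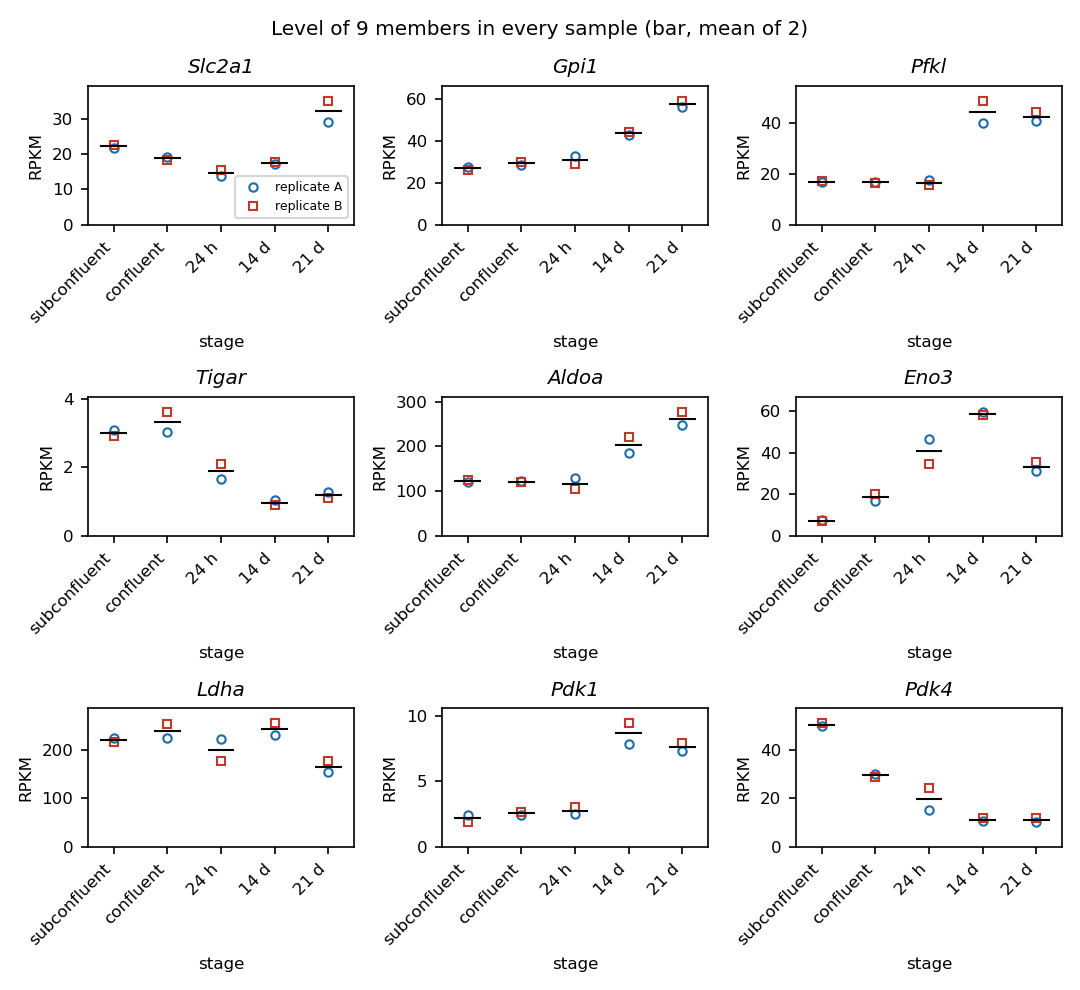
RPKM of 9 members in every sample by stage, with a circle for replicate A, a square for replicate B and a bar for the mean of the 2 replicates. Each vertical axis starts at 0 and has its own scale. Pfkl and Pdk1 sit at one level in the first 3 stages and at a higher one at 14 d and 21 d, Slc2a1 is highest at 21 d, and Eno3 is highest at 14 d.

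The bifunctional PFKFB enzymes set fructose 2,6-bisphosphate, the main activator of phosphofructokinase, and Tigar breaks it down. Pfkfb3, the form with the strongest kinase, stood at 2.18 and 1.98 RPKM in subconfluent, 1.96 and 1.58 in confluent, 0.386 and 1.17 in 24 h, 0.532 and 0.561 in 14 d and 0.346 and 0.336 in 21 d cells. It fell by 2.49 ± 0.44 on the log2 scale at 21 d against subconfluent cells (adjusted p = 0.0025), 5.62-fold, with no overlap of the samples. Its fall of 1.48 ± 0.42 at 14 d against confluent cells (adjusted p = 0.033) was lost on leaving out any of 6 libraries, both replicates of confluent, 14 d and 21 d cells (adjusted p = 0.059 to 0.15).

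Pfkfb4 took another course, with 1.75 and 1.74 RPKM in subconfluent, 2.56 and 2.50 in confluent, 2.69 and 3.10 in 24 h, 3.72 and 3.68 in 14 d and 1.83 and 2.07 in 21 d cells. It rose by 0.77 ± 0.11 at 14 d against confluent cells (adjusted p = 0.0021) and fell by 1.0 ± 0.11 between 14 d and 21 d (adjusted p = 0.0018), so that at 21 d it was back near its subconfluent level (0.28 ± 0.11, not called). Pfkfb2 ran from 0.895 to 2.26 RPKM with no call. Pfkfb1, under 1 RPKM in every sample, fell by 1.73 ± 0.21 at 21 d against subconfluent cells (adjusted p = 0.00045), and it shares 123 of its 4017 exon bases with Apex2 on the opposite strand.

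Tigar, a bisphosphatase that lowers glycolytic flux, fell as well. Its levels were 3.10 and 2.91 RPKM in subconfluent, 3.05 and 3.63 in confluent, 1.67 and 2.10 in 24 h, 1.03 and 0.910 in 14 d and 1.29 and 1.10 in 21 d cells, with the 4 late samples below the 6 early ones. It fell by 1.57 ± 0.16 at 14 d against confluent cells (adjusted p = 0.00049). At 21 d against subconfluent cells it fell by 1.22 ± 0.16 (adjusted p = 0.00055). Within the first 24 h it fell by 0.74 ± 0.15 (adjusted p = 0.041), a call that did not survive the removal of any of 9 of the 10 libraries (adjusted p = 0.062 to 0.19), 24 h replicate B being the exception. The Tigar/Pfkfb3 ratio did not pass the exact permutation test over the stages (p = 0.21, adjusted p = 0.21), with 1.45 ± 0.0368 in subconfluent and 3.5 ± 0.303 in 21 d cells (SD, n = 2). The 24 h ratio was 4.33 in replicate A and 1.80 in replicate B.

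In lower glycolysis 8 of 11 genes rose at 14 d against confluent cells, and 4 rose and 1 fell at 21 d against subconfluent cells. The shares called were 72.7% and 45.5%, against 32.1% and 50.7% of all genes, so that the latter is no more than background. With library sizes alone, the count at 14 d against confluent cells was 5. Aldoa, the main aldolase, was highest at 21 d, with 119 and 124 RPKM in subconfluent, 122 and 120 in confluent, 129 and 104 in 24 h, 184 and 220 in 14 d and 247 and 277 in 21 d cells. The late samples stood above all early ones. The rise was 0.96 ± 0.16 at 14 d against confluent (adjusted p = 0.0041) and 1.22 ± 0.16 at 21 d against subconfluent cells (adjusted p = 0.00065), 2.33-fold. Aldoc, the brain form, stayed at or below 0.214 RPKM with no call.

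Tpi1, Gapdh, Pgk1, Pgam1 and Eno1 encode the next enzymes of the route, from triose phosphate isomerase to enolase. Tpi1 stood at 133 and 140 RPKM in subconfluent, 155 and 162 in confluent, 116 and 111 in 24 h, 166 and 191 in 14 d and 135 and 149 in 21 d cells. Gapdh, the member with the highest mean, stood at 454 and 488, 457 and 473, 381 and 367, 472 and 529, and 425 and 456 RPKM in the same order. Both were lowest at 24 h, and both had their highest single value at 14 d. Pgam1 ran from 264 to 415 RPKM and was not called over the 5 stages (adjusted p = 0.11).

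Pgk1 stood at 136 and 136 RPKM in subconfluent, 111 and 99.6 in confluent, 112 and 85.4 in 24 h, 157 and 195 in 14 d and 138 and 157 in 21 d cells. Eno1 stood at 72.1 and 74.4, 67.2 and 64.0, 67.8 and 51.4, 86.5 and 103, and 74.6 and 77.3 RPKM in the same order. For both genes the 14 d samples lay above all samples of the first 3 stages, and the 21 d samples lay just above the subconfluent ones.

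At 14 d against confluent cells Pgk1 rose by 0.96 ± 0.19 (adjusted p = 0.0075), Eno1 by 0.75 ± 0.17 (adjusted p = 0.015), Pgam1 by 0.50 ± 0.16 (adjusted p = 0.046) and Tpi1 by 0.39 ± 0.11 (adjusted p = 0.038). Gapdh, often used as a reference gene, was not called there (0.32 ± 0.11, adjusted p = 0.067), though it differed over the 5 stages (adjusted p = 0.042 by the F test). Its rise of 0.54 ± 0.11 between 24 h and 14 d was called (adjusted p = 0.019). That call was lost with no filter on low counts (0.063) or the 2 stages alone (0.27). It was also lost on leaving out any of 4 libraries, both replicates of subconfluent and 14 d cells (0.44 to 0.64 on the log2 scale). None of these 5 genes was called at 21 d against subconfluent cells, where the differences ran from -0.04 for Pgam1 to 0.24 for Pgk1. The Pgk1 call was lost without confluent replicate B (adjusted p = 0.056) or 14 d replicate B (0.055), and the Eno1 call without either confluent replicate (0.070 and 0.084) or 14 d replicate B (0.10). Removal of any of 7 libraries ended the Tpi1 call (adjusted p = 0.063 to 0.23, all but the 24 h replicates and 14 d replicate A), removal of any but the 24 h libraries ended the Pgam1 call (0.078 to 0.25), and with library sizes alone the Tpi1 rise shrank to 0.16.

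Pgk1, Eno1, Gapdh and Pgam1 have near-identical copies in the genome, and how reads shared between copies were counted is not given in the sources used here. The copy Pgk1-rs7 carried 128% of the mean count of Pgk1, Eno1b 110% of that of Eno1, Gapdh-ps15 64.4% of that of Gapdh and Pgam1-ps2 44.3% of that of Pgam1. The log2 differences of the copies at 14 d against confluent cells were 0.95 for Pgk1-rs7, 0.75 for Eno1b, 0.47 for Pgam1-ps2 (all called) and 0.34 for Gapdh-ps15 (not called). Levels of these members are therefore uncertain, since reads of a gene and of its copy cannot be told apart here. Copies were looked for only under names built on the member's own symbol. Copies with other names, of these or of other members such as Aldoa, Tpi1 and Pkm, were not looked for.

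**Figure D3:**
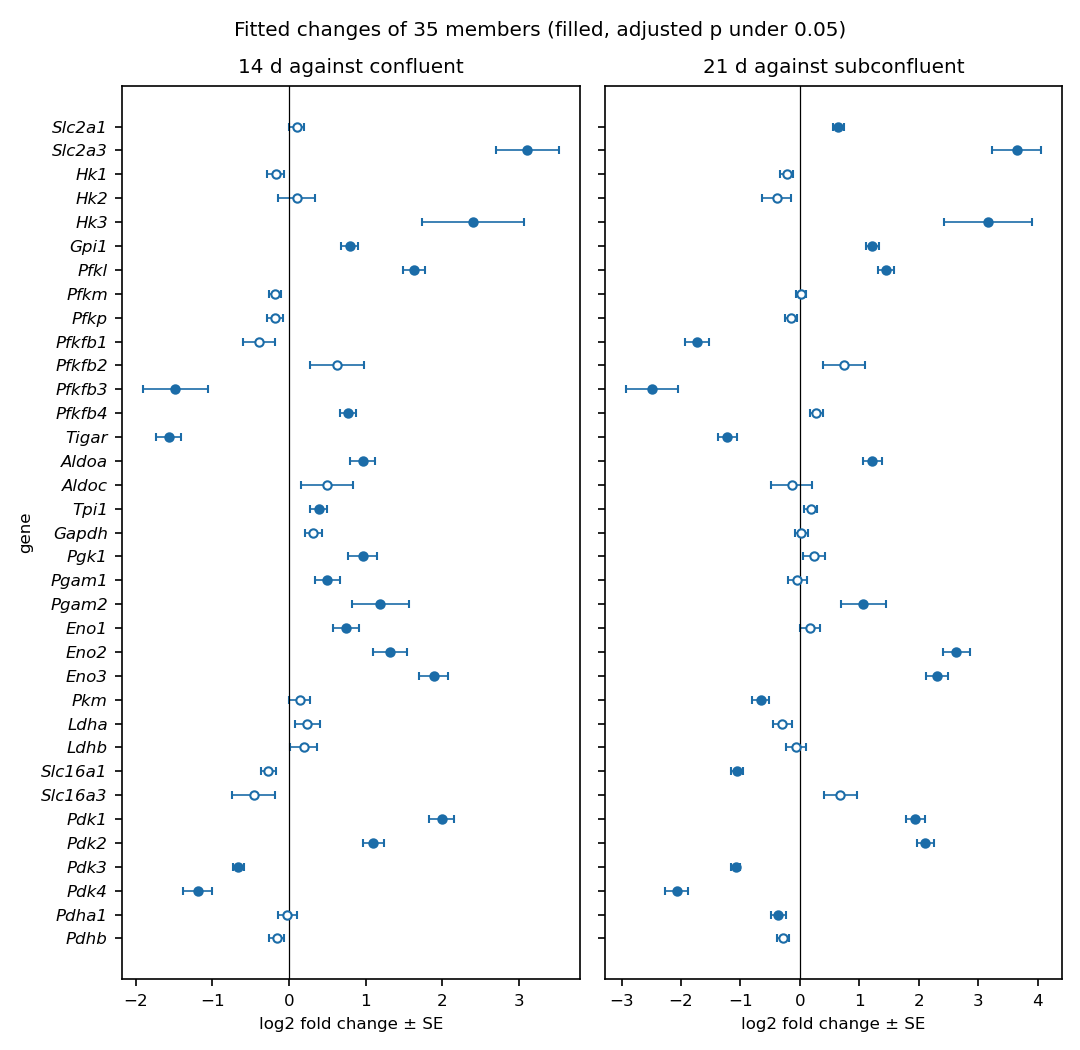
Log2 fold change with its SE for the 35 members tested, at 14 d against confluent cells on the left and at 21 d against subconfluent cells on the right, from the edgeR fit of all 10 samples. Points are filled where the adjusted p-value was under 0.05 and open elsewhere. The 8 called genes of lower glycolysis lie right of 0 on the left, while on the right those from Tpi1 to Pgam1 and Eno1 are open.

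Enolase makes phosphoenolpyruvate, and 2 of its 3 genes rose in both of the longer comparisons. Eno3, the muscle-type form, stood at 7.66 and 6.85 RPKM in subconfluent, 16.9 and 20.1 in confluent, 46.8 and 34.5 in 24 h, 59.7 and 58.0 in 14 d and 31.0 and 35.5 in 21 d cells. The stages up to 14 d do not overlap each other, and 21 d lies below 14 d and overlaps 24 h. It rose by 1.89 ± 0.19 at 14 d against confluent (adjusted p = 0.00046) and by 2.31 ± 0.19 at 21 d against subconfluent cells (adjusted p = 6.7e-05), 4.96-fold.

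Eno3 was the one member called in all 6 comparisons. Its rise from subconfluent to confluent cells was 1.32 ± 0.19 (adjusted p = 0.013), and that in the first 24 h was 1.24 ± 0.18 (adjusted p = 0.013). Between 24 h and 14 d the rise was 0.65 ± 0.18 (adjusted p = 0.049), and between 14 d and 21 d Eno3 fell by 0.90 ± 0.18 (adjusted p = 0.023). Single libraries decided these calls. The first was lost without subconfluent replicate A (adjusted p = 0.11) or B (0.15) or confluent replicate B (0.11), and the second without confluent replicate A (0.11) or B (0.065). The third was lost on removing any of 9 libraries, all but 24 h replicate A (0.067 to 0.19), and also with DESeq2 size factors (0.051), no filter on low counts (0.094), limma (0.052 and 0.053) or the 2 stages alone (0.26). The fall was lost without any of the subconfluent, 14 d or 21 d libraries (0.069 to 0.18). Of the 7 skeletal muscle markers, Myod1, a master regulator of muscle, had 0 counts in every sample, Myog at most 1 and Ckm at most 5. Acta1, skeletal muscle actin, ran from 14.3 to 43.6 RPKM and made up most of the list's sum, and it fell by 1.0 ± 0.16 at 14 d against confluent (adjusted p = 0.0036) and by 1.48 ± 0.16 at 21 d against subconfluent cells (adjusted p = 0.00027). Mylpf, Tnnt3 and Myh4 reached at most 1.19, 0.421 and 1.46 RPKM and were not called in either.

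Eno2, the neuronal form, was low and had its highest values at 21 d, with 0.608 and 0.470 RPKM in subconfluent, 0.850 and 0.726 in confluent, 0.963 and 0.781 in 24 h, 1.91 and 1.48 in 14 d and 2.91 and 3.29 in 21 d cells. The 24 h, 14 d and 21 d samples do not overlap, and the rise at 21 d against subconfluent cells was 2.63 ± 0.23 (adjusted p = 7.7e-05), 6.2-fold. Eno3 made up 8.96% ± 0.815 of the summed RPKM of the 3 enolases in subconfluent and 40.1% ± 0.477 in 24 h cells, 38.0% ± 3.25 at 14 d and 29.6% ± 1.40 at 21 d (SD, n = 2). The Eno2/Eno1 ratio went from 0.00737 ± 0.00150 in subconfluent to 0.0408 ± 0.00254 in 21 d cells and differed over the stages (adjusted p = 0.0063, exact permutation test). These shares and this ratio carry the uncertainty of the Eno1 level, since Eno1b held 110% of the mean count of Eno1.

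Pkm, the pyruvate kinase of the last step, was highest in subconfluent cells. It stood at 358 and 360 RPKM in subconfluent, 321 and 305 in confluent, 243 and 203 in 24 h, 279 and 315 in 14 d and 202 and 216 in 21 d cells. It fell by 0.66 ± 0.14 at 21 d against subconfluent cells (adjusted p = 0.0061). Its fall of 0.58 ± 0.14 between 14 d and 21 d (adjusted p = 0.043) was lost on removing any of 8 libraries, all but the 24 h ones (adjusted p = 0.081 to 0.27). Gene-level counts do not separate the M1 and M2 splice forms of Pkm. Pgam2, the muscle mutase, stayed between 0.501 and 1.49 RPKM. It was called at 14 d against confluent (1.19 ± 0.37, adjusted p = 0.046) and at 21 d against subconfluent cells (1.07 ± 0.38, adjusted p = 0.047), but not over the 5 stages (adjusted p = 0.059), and each call ended on removing any of the 8 libraries other than the 24 h ones (adjusted p = 0.060 to 0.26 and 0.055 to 0.23).

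Of the 4 lactate genes, 1 was called in any of the 6 comparisons. Ldha, which favours lactate formation, had 224 and 215 RPKM in subconfluent, 224 and 252 in confluent, 222 and 176 in 24 h, 230 and 255 in 14 d and 153 and 177 in 21 d cells. It was not called over the 5 stages either (adjusted p = 0.091), and its difference at 14 d against confluent cells was 0.24 ± 0.16. The largest of its 6 differences, -0.63 ± 0.17 between 14 d and 21 d, lay just short of a call (adjusted p = 0.056). The processed copies Ldha-ps2 and Ldha-ps carried 13.1% and 2.23% of its mean count. Ldhb ran from 4.64 to 7.38 RPKM with no call, so that Ldha made up at least 96.8% of the pair in every sample. The Ldhb/Ldha ratio moved between 0.0203 ± 0.000534 at 14 d and 0.0330 ± 0.000340 at 24 h (SD, n = 2) and differed over the stages (adjusted p = 0.013, exact permutation test).

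The lactate exporter Slc16a1 (MCT1) stood at 14.8 and 14.2 RPKM in subconfluent, 11.7 and 10.3 in confluent, 8.45 and 8.65 in 24 h, 7.45 and 8.20 in 14 d and 6.42 and 6.45 in 21 d cells. The stages do not overlap on this scale, but none of the 4 neighbouring comparisons called the gene, and the fitted difference between 24 h and 14 d was -0.0 ± 0.10. Its fall of 1.06 ± 0.10 at 21 d against subconfluent cells (adjusted p = 0.0001) was the one call among the 4 lactate genes. Slc16a3 (MCT4), the exporter of strongly glycolytic cells, stayed between 0.114 and 0.285 RPKM with no call. The ratio of Slc16a3 to Slc16a1 was 0.0112 ± 0.00138 in subconfluent and 0.0381 ± 0.00896 in 21 d cells and differed over the stages (adjusted p = 0.0063, exact permutation test). Bsg, the chaperone that brings both exporters to the membrane, stood between 273 and 467 RPKM and rose by 0.81 ± 0.17 at 21 d against subconfluent cells (adjusted p = 0.0065), a call that was lost without subconfluent replicate A (0.058) or B (0.055).

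At the pyruvate gate 2 kinase genes rose and 2 fell. Pdk1, a kinase known as a hypoxia target, stood at 2.43 and 1.86 RPKM in subconfluent, 2.45 and 2.61 in confluent and 2.50 and 3.01 in 24 h cells, and at 7.88 and 9.46 at 14 d and 7.34 and 7.89 at 21 d. The late samples lay more than 2-fold above the early ones. The rise was 1.99 ± 0.16 at 14 d against confluent (adjusted p = 0.0002), 3.98-fold, and 1.94 ± 0.16 at 21 d against subconfluent cells (adjusted p = 6.6e-05).

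Pdk2 rose earlier, with 2.59 and 2.30 RPKM in subconfluent, 4.07 and 4.96 in confluent, 7.33 and 9.48 in 24 h, 8.29 and 8.45 in 14 d and 10.0 and 9.50 in 21 d cells. It rose by 2.11 ± 0.14 at 21 d against subconfluent cells (adjusted p = 2.7e-05), 4.31-fold, and by 1.10 ± 0.14 at 14 d against confluent cells (adjusted p = 0.0012). The first 2 steps were called as well, with 0.86 ± 0.14 from subconfluent to confluent (adjusted p = 0.022) and 0.98 ± 0.14 in the first 24 h (adjusted p = 0.010). The former was lost on removing any of 7 libraries, all but the 24 h ones and confluent replicate A (adjusted p = 0.063 to 0.16), and the latter without confluent replicate A (0.078).

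Pdk4, the kinase of fasting and fat oxidation, stood at 49.9 and 51.4 RPKM in subconfluent, 30.3 and 28.9 in confluent, 15.2 and 24.4 in 24 h, 10.5 and 11.8 in 14 d and 10.3 and 11.9 in 21 d cells. Pdk3 stood at 27.1 and 27.6, 24.4 and 24.2, 18.6 and 19.4, 13.4 and 13.2, and 11.9 and 12 RPKM in the same order. At 21 d against subconfluent cells Pdk4 fell by 2.07 ± 0.19 (adjusted p = 0.00011) and Pdk3 by 1.08 ± 0.07 (adjusted p = 2e-05). At 14 d against confluent cells Pdk4 fell by 1.19 ± 0.19 (adjusted p = 0.003) and Pdk3 by 0.66 ± 0.07 (adjusted p = 0.00049).

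Summed over the 4 kinases, the level was 82.6 ± 0.856 RPKM in subconfluent, 60.9 ± 0.420 in confluent, 50.0 ± 8.91 in 24 h, 41.5 ± 2.03 in 14 d and 40.4 ± 1.20 in 21 d cells (SD, n = 2). Pdk4 made up 61.3% ± 0.669 of the sum in subconfluent and 27.4% ± 1.83 in 21 d cells, Pdk1 2.60% ± 0.516 and 18.8% ± 0.406, and Pdk2 2.97% ± 0.280 and 24.2% ± 1.62. The Pdk1/Pdk2 ratio was 0.872 ± 0.0915 in subconfluent, 0.329 ± 0.0163 in 24 h and 1.04 ± 0.119 in 14 d cells and differed over the stages (p = 0.0032, adjusted p = 0.0063, exact permutation test).

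The kinases act on the subunit encoded by Pdha1, part of the first enzyme of the pyruvate dehydrogenase complex. Pdha1 ran from 52.8 to 78.4 RPKM and was called only at 21 d against subconfluent cells (-0.36 ± 0.12, adjusted p = 0.044), a call that ended on removing any of the 8 libraries other than the 24 h ones (adjusted p = 0.054 to 0.18). It shares 603 of its 3734 exon bases with Map3k15 on the opposite strand. Pdhb, which encodes the other subunit of that enzyme, stood at 30.6 and 30.8 RPKM in subconfluent, 34.0 and 38.3 in confluent, 36.8 and 33.6 in 24 h, 28.6 and 27.1 in 14 d and 23.5 and 23.0 in 21 d cells. The 21 d samples were the lowest, and the gene differed over the 5 stages (adjusted p = 0.018) with no pairwise call.

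**Figure D4:**
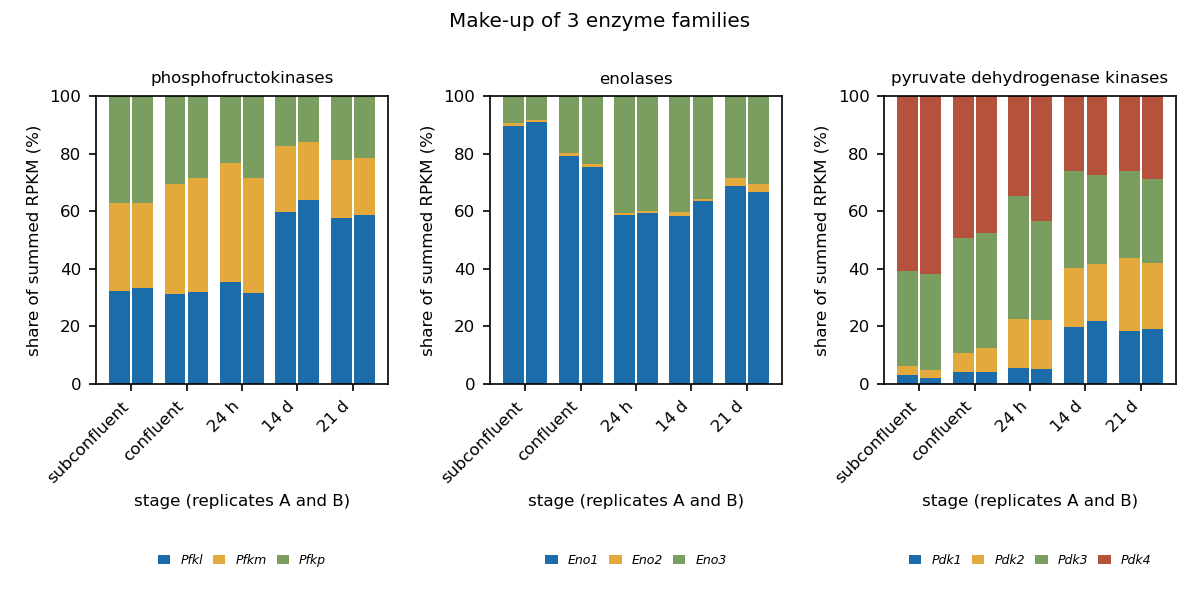
Share of each paralog in the summed RPKM of its family, in percent, as stacked bars for replicates A and B of each stage. The families are the phosphofructokinase subunits, the enolases and the pyruvate dehydrogenase kinases. Pfkl makes up 61.7% at 14 d against 31.6% in confluent cells, Eno3 40.1% at 24 h against 8.96% in subconfluent cells, and Pdk4 27.4% at 21 d against 61.3% in subconfluent cells. The enolase shares carry the uncertainty of Eno1, whose reads may be split with Eno1b.

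Hexokinase make-up changed as well, with an Hk2/Hk1 ratio of 0.600 ± 0.0359 in subconfluent, 0.337 ± 0.000447 in confluent, 0.295 ± 0.0910 in 24 h, 0.407 ± 0.0123 in 14 d and 0.534 ± 0.0219 in 21 d cells (SD, n = 2, adjusted p = 0.013, exact permutation test). In all, 7 of the 8 ratios tested differed over the stages at an adjusted p-value under 0.05. Slc2a3/Slc2a1 and Aldoc/Aldoa were left out because a member was under 0.1 RPKM in some sample.

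Around these members, the lists of neighbouring pathways moved in different directions. Of 15 hypoxia targets outside glycolysis, 13 were called at 14 d against confluent cells and 14 at 21 d against subconfluent cells, all higher, with medians of 1.55 and 2.03 on the log2 scale (86.7% and 93.3%, against 32.1% and 50.7% of all genes). Car9, a membrane carbonic anhydrase, stayed between 0.189 and 0.256 RPKM in the first 3 stages and reached 18.6 and 25.2 at 14 d and 28.1 and 32.8 at 21 d. Ankrd37 went from at most 0.529 RPKM to 10.7 and 13.3 at 14 d and 8.18 and 11.2 at 21 d. At 21 d against subconfluent cells Car9 rose by 7.42 ± 0.25 (adjusted p = 2.7e-06) and Ankrd37 by 5.76 ± 0.40 (adjusted p = 2.9e-05).

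Of 12 regulator genes tested, 2 rose and 2 fell at 14 d against confluent cells, and 3 rose and 4 fell at 21 d against subconfluent cells. These shares, 33.3% and 58.3%, lie near those of all genes, 32.1% and 50.7%. Hif1a, an oxygen-sensing factor, had 29.9 and 26.9 RPKM in subconfluent and 14.6 and 14.4 in 21 d cells and fell by 0.85 ± 0.21 (adjusted p = 0.012), a call lost without subconfluent replicate A (0.053) or 21 d replicate A (0.060) or B (0.063). The related Epas1 stayed between 0.273 and 0.739 RPKM (0.26 ± 0.27, not called). Myc, a regulator of many glycolytic genes, rose by 0.41 ± 0.09 at 21 d against subconfluent cells (adjusted p = 0.0085). That call was lost without subconfluent replicate A (0.063) or B (0.062) or 21 d replicate A (0.068), and with library sizes alone (0.25 on the log2 scale, adjusted p = 0.16). Txnip and Arrdc4 are known as glucose-responsive brakes on glucose uptake. Txnip first rose, by 0.83 ± 0.10 in the first 24 h (adjusted p = 0.0065) and by 0.58 ± 0.10 between 24 h and 14 d (0.011). It stood at 81.6 and 74.9 RPKM at 14 d and at 7.93 and 7.29 at 21 d. Its change in that interval was -3.44 ± 0.11 (adjusted p = 5.7e-05), and a link to the rise of Slc2a1 was not tested. Arrdc4 was already lower at 14 d against confluent cells (-0.90 ± 0.09, adjusted p = 0.00049). At 21 d against subconfluent cells its change was -2.31 ± 0.10 (adjusted p = 4.7e-06).

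The pentose phosphate pathway, which branches off at glucose 6-phosphate, had calls mainly downward. Of its 7 genes 4 were called at 14 d against confluent cells, all lower, and 4 fell and 1 rose at 21 d against subconfluent cells (57.1% and 71.4%, against 32.1% and 50.7% of all genes). G6pdx, the gene of its first enzyme, fell by 1.45 ± 0.12 (adjusted p = 7.7e-05) and Pgd by 1.25 ± 0.11 (adjusted p = 7.7e-05) in the latter. Of 24 genes of pyruvate entry and the TCA cycle, 10 were called at 14 d against confluent and 15 at 21 d against subconfluent cells, all lower, and with library sizes alone 17 and 20. The shares were 41.7% and 62.5%, against 32.1% and 50.7% of all genes. Cs, citrate synthase, fell by 1.20 ± 0.09 (adjusted p = 3.9e-05) and Pdp2, a phosphatase that turns pyruvate dehydrogenase back on, by 1.05 ± 0.29 (adjusted p = 0.018). The Pdp2 call was lost without subconfluent replicate A (0.070) or either 21 d replicate (0.053 and 0.11).

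Among 9 genes of the malate-aspartate and glycerol phosphate shuttles, which carry cytosolic reducing power into mitochondria, 6 fell and 1 rose at 14 d against confluent cells, and 5 fell and 2 rose at 21 d against subconfluent cells (77.8% in each, against 32.1% and 50.7% of all genes). Slc25a13, an aspartate-glutamate carrier, fell by 1.84 ± 0.09 (adjusted p = 8.2e-06) and Gpd1 rose by 1.43 ± 0.26 (adjusted p = 0.0029) in the latter. Of 11 glycogen genes tested, 1 was higher and 3 lower at 14 d against confluent cells and 2 higher and 4 lower at 21 d against subconfluent cells, shares of 36.4% and 54.5% that lie near those of all genes. Pygm, the muscle glycogen phosphorylase, went from between 0.432 and 0.824 RPKM in the first 3 stages to between 7.10 and 8.99 in the last 2, with a rise of 4.03 ± 0.15 at 21 d against subconfluent cells (adjusted p = 3.3e-06), while Pgm2 fell by 0.83 ± 0.10 (adjusted p = 0.00046).

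Among 24 other isoforms and transporters of the same steps, 17 were tested, of which 6 rose and 1 fell at 14 d against confluent cells and 7 rose and 1 fell at 21 d against subconfluent cells. Their shares were 41.2% and 47.1%, against 32.1% and 50.7% of all genes, so that the latter is no more than background. Slc16a8 (2.72 ± 0.55, adjusted p = 0.0051) and Ldhd (1.88 ± 0.32, adjusted p = 0.0021) had the largest called changes in the latter, at no more than 0.236 and 1.09 RPKM. In the cell cycle list 11 of 12 genes fell at 14 d against confluent cells and all 12 at 21 d against subconfluent cells. These shares were 91.7% and 100%, against 32.1% and 50.7% of all genes. Mcm5 and Bub1 had the largest falls at 21 d against subconfluent cells, of 4.12 ± 0.13 (adjusted p = 2.5e-06) and 3.91 ± 0.30 (adjusted p = 5.1e-05).

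**Figure D5:**
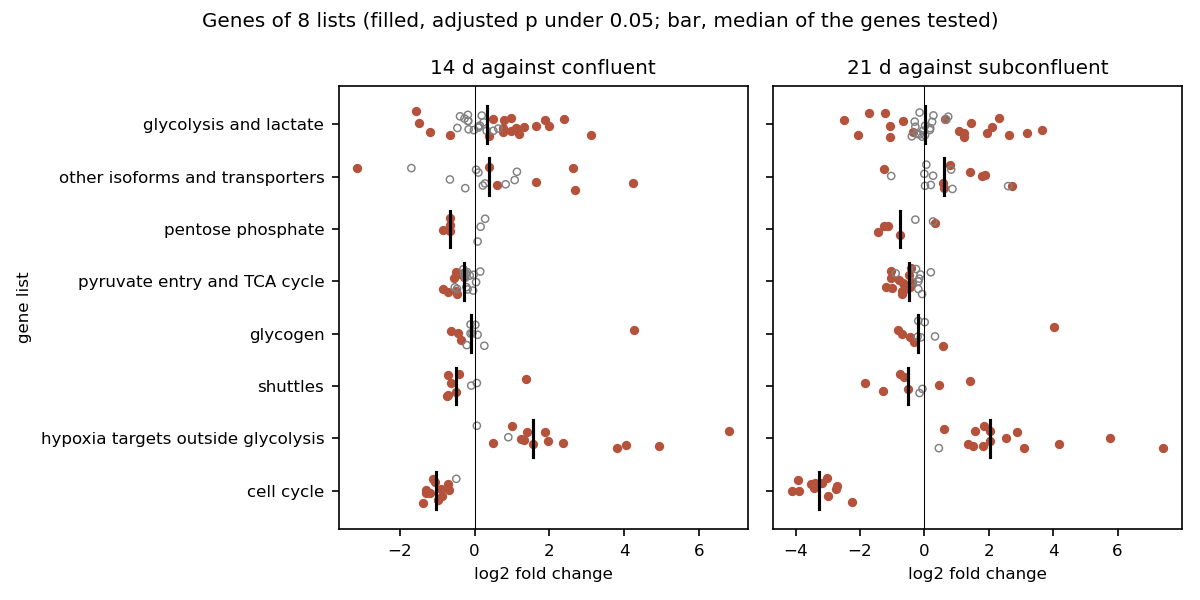
Log2 fold change of every tested gene in 8 lists, at 14 d against confluent cells on the left and 21 d against subconfluent cells on the right, with filled points for an adjusted p-value under 0.05 and a bar for the list's median. The vertical scatter within a list carries no meaning. Hypoxia targets outside glycolysis have medians of 1.55 and 2.03, the glycolysis and lactate genes 0.32 and 0.02, and the cell cycle genes -1.03 and -3.29.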

How the data were processed

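RNA from 10 samples of MC3T3-E1 subclone 4 cells, 2 per stage, was sequenced. The authors deposited counts of reads per gene and, per the file headers, RPKM with gene lengths. The submitters' processing notes name TopHat2 2.0.9, the mm10 build, R 3.0.1 and FastQC. The counting tool, its use of strand and its treatment of reads with several positions are not given in the sources used here. For 2 samples run on 2 lanes the merged column was used. Symbols came from GENCODE vM21 on GRCm38 for 39547 of 40620 gene identifiers. The RPKM values break off in 1 row, and 18 genes have no RPKM.

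Counts ranged from 44736156 to 162939333 per sample. Genes passing filterByExpr (20808) were fitted over all 5 stages with TMM scaling by edgeR 4.0.16 in R 4.3.3, using the 2-sided quasi-likelihood test, with Benjamini-Hochberg adjustment over all genes tested. Ratios of paralogs were compared by exact permutation of log2 RPKM ratios. Alternatives used limma 3.58.1, on log2(RPKM + 1) and log2(RPKM + 0.1), and DESeq2 1.42.0, other scalings and filters, a replicate term, and each sample left out. The fits were tested on simulated data. Values are given in every sample for members called over the 5 stages with a mean of at least 1 RPKM, and genes outside the members come from lists of neighbouring pathways, 2 per list with the largest called changes of each list plus regulators of the route. The members, lists and tests were chosen with earlier results of these data known. Counting error weighs most for genes under 1 RPKM, and it was not set against the spread between replicates here.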

Additional observations from a re-analysis of the deposited data

How the results depend on the processing

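Over 1299 refits of the 63 called changes of members, 1093 kept direction and call, 206 lost the call and 0 reversed, and 31 changes kept the call in every refit. The count over the 5 stages stayed between 20 and 33 (26 as reported), that at 21 d against subconfluent cells between 16 and 27 (19), and that of ratios between 6 and 8 (7). At 14 d against confluent cells (19) only the 2-fold bar (11) and single libraries left out (12 to 24) moved it past 1.5 times. Library sizes alone gave 1 call for confluent against subconfluent (2), 6 for 24 h against confluent (3) and 7 for 21 d against 14 d cells (4), and DESeq2 gave 9, 7 and 13. A minimum of 10 counts gave 5 in the first and 7 in the last. limma on log2(RPKM + 1) gave 6 for 24 h against confluent cells, and on RPKM it gave 9 and 7 for 21 d against 14 d cells. Fits of only the 2 stages compared gave 5, 0, 1 and 15 in the 4 neighbouring comparisons, the 0 by edgeR with 0 genes called in all. Left-out libraries gave 0 to 9, 0 to 13, 4 to 24 and 2 to 17. Without the 24 h samples, chosen after seeing the data, the first gave 9 and the last 18, with 3299 and 5315 of all genes called. More than 2-fold were 1, 1, 4 and 0. The median log2 fold change shifts with library sizes alone by between -0.23 and 0.09.

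Replicate letters showed no common pairing of the samples, with correlations of same-letter deviations from -0.184 to 0.0995. Outside 24 h their sign followed sequencing depth. The library with more counts was replicate A in subconfluent and 14 d cells and replicate B in confluent and 21 d cells. Stages with the same deeper letter correlated at 0.0995 and 0.099, and those with different ones at -0.184 to -0.146. A term for depth or run was not fitted. With a replicate block the counts were 24 over the 5 stages, then 2, 2, 14 and 2 in the neighbouring comparisons, 15 at 14 d against confluent and 17 at 21 d against subconfluent cells.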
